A study of Xenopus laevis with 8 samples.

Results

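The 144 genes described here were those with lower RNA levels after atrazine (ATR) in every pair of libraries from the gut of *Xenopus laevis* embryos. They were chosen on CPM, read counts scaled to a library total of 1000000, with edgeR's TMM factors, which correct each total for the composition of its library. A gene was kept if its mean over 8 libraries was from 2 to under 1000 CPM and its DMSO/ATR ratio was at least 1.3 in each of the 4 pairs of libraries that carry the same replicate number. Of 51061 genes in the deposited table, 30702 had at least 1 count in 4 or more libraries, 18288 of these lay in the CPM range, and 144 of those (0.787%) met the ratio limit. Direction and minimum size were thus fixed by the choice of genes, and both are given as a description without a test. The same rule turned around, with ATR over DMSO, kept 181 genes.

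RNA was taken from embryos at about Nieuwkoop and Faber stage 40, exposed for 24 h to 35 mg/l of ATR or to the vehicle DMSO without ATR. Both groups consisted of 4 libraries, each made from 10 pooled intestines without the foregut, so a library averages over embryos and over the cell types of the mid- and hindgut. A lower level in such a library cannot be told apart from fewer cells that carry the transcript. The paper calls the pools biological replicates. No label says what a replicate number stands for, or whether pools of 1 group came from separate clutches.

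ATR is a triazine herbicide that blocks electron transport in chloroplasts, and in animals it can also act on the mitochondrial electron transport chain. At the exposed stages the frog gut is a short tube filled with layers of yolky endoderm cells. These cells rearrange, polarize, differentiate and divide as the tube lengthens into the coiled intestine of the tadpole. *X. laevis* is an allotetraploid, and many of its genes exist as an L and an S copy on separate subgenomes, which are counted as separate genes.

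The deposited table names genes by a running identifier, and none of its identifiers matched the RefSeq gene table used here. The function of the 144 genes, their L or S copy and their sequences were therefore not analysed here, and the tissue could not be checked by marker genes. Only the gene with the largest ratio and the most abundant gene are printed by identifier, and other genes are described by their place among the 144.

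Between 95497200 and 106791269 counts were assigned to genes in each DMSO control and between 79887778 and 104915882 in each ATR library, where replicate 2 had the highest total and the others at most 83727156. The 144 genes held from 0.297% to 0.372% of the counts tested in DMSO controls and from 0.184% to 0.244% in ATR libraries. Their summed level was 3115, 3478, 3395 and 3128 CPM in DMSO replicates 1 to 4 and 2045, 2196, 2273 and 2087 CPM in the ATR replicates. Without the most abundant gene the sum lay between 2389 and 2572 CPM in controls and between 1538 and 1639 CPM after ATR.

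The gene with the largest ratio was gene18886, with a geometric mean DMSO/ATR ratio of 3.32 over the pairs. Its level was 18.4, 12.6, 9.36 and 16.0 CPM in DMSO replicates 1 to 4 and 8.75, 5.83, 1.35 and 4.16 CPM in ATR replicates 1 to 4. All ATR libraries lay below all controls, but only narrowly, since ATR replicate 1 was close to DMSO replicate 3. The pairs differed widely, with ratios of 2.10, 2.15, 6.94 and 3.86, the widest spread of log2 ratios among the 144 genes (SD 0.82, n = 4 pairs). The ratio in pair 3 rested on 121 counts in the ATR library against 1096 in its control. Its log2 fold change from edgeR with treatment as the only term was -1.49 (standard error 0.44), and it was -1.69 (standard error 0.20) with the replicate number as a block, which compares libraries within a number. edgeR's standard errors draw on the dispersion of other genes, so the 0.20 does not describe the spread of this gene's own 4 ratios.

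The most abundant gene was gene5277, whose ratio was near the lower end of the 144. Its level was 654, 906, 946 and 739 CPM in DMSO replicates 1 to 4, a mean of 811 ± 138 (SD, n = 4), and 458, 557, 665 and 549 CPM after ATR, a mean of 557 ± 84.7 (SD, n = 4). The groups overlapped, because ATR replicate 3 was above DMSO replicate 1. Within pairs the ratios were 1.43, 1.63, 1.42 and 1.34. The log2 fold change was -0.54 with either fit, with a standard error of 0.14 without the block and 0.073 with it.

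**Figure D1:**
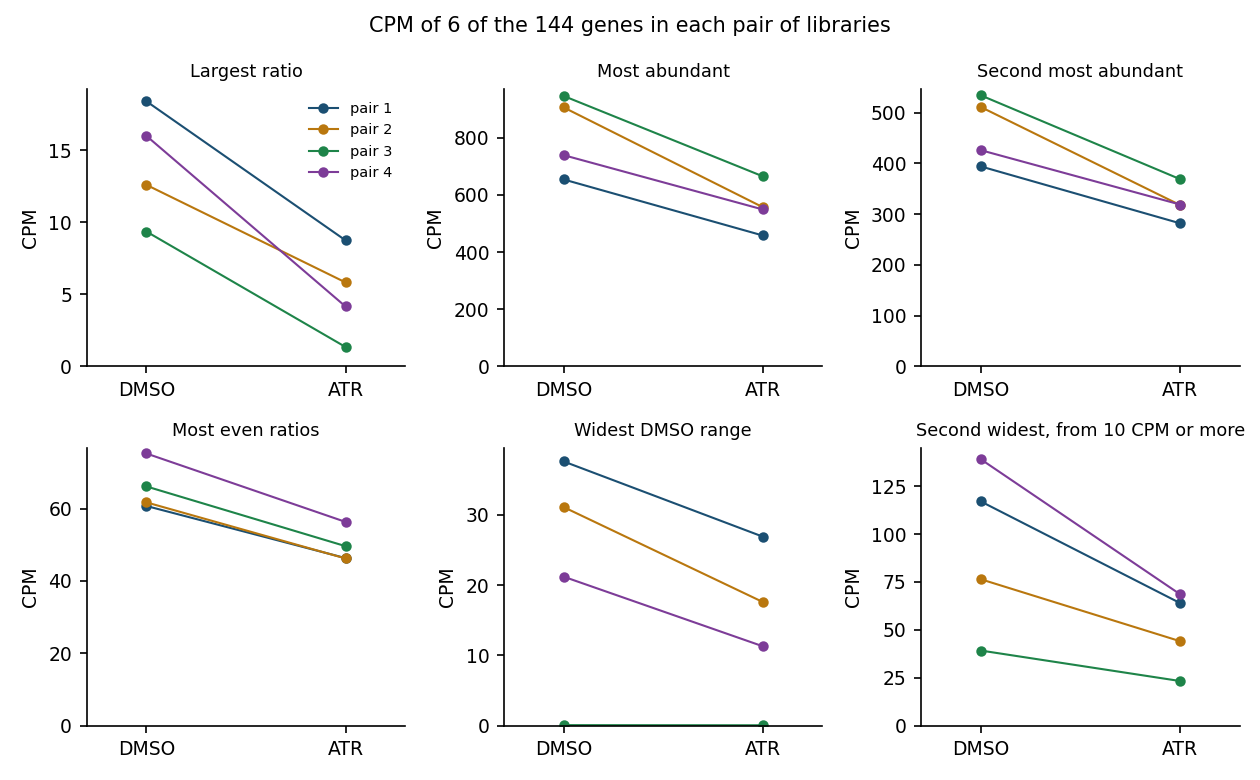
CPM (linear axes that start at 0) of 6 of the 144 genes in the DMSO and ATR libraries, with a line for each replicate number; the last panel is the gene with the second widest DMSO range among those of 10 CPM or more. The most abundant gene lies between 654 and 946 CPM in controls and between 458 and 665 CPM after ATR, and the gene with the widest DMSO range lies near 0 in both libraries of replicate 3.

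The second most abundant gene had nearly the same ratios in each pair as gene5277. Its level was 394, 511, 534 and 426 CPM in DMSO replicates 1 to 4 and 282, 318, 369 and 319 CPM after ATR. Here all ATR libraries were below all controls. The ratios were 1.40, 1.61, 1.44 and 1.34, so that pair 2 was the largest and pair 4 the smallest in both genes. The third most abundant gene had 157, 159, 148 and 129 CPM in the controls and 119, 121, 106 and 98.9 CPM after ATR, again with no overlap. These were the only 3 of the 144 genes with a mean of 100 CPM or more.

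Most of the 144 genes were weakly expressed. Their mean level in DMSO controls had a median of 8.18 CPM (quartiles 4.50 and 15.5) and after ATR of 4.82 CPM (quartiles 2.79 and 9.10). All genes of the same CPM range had a median of 15.0 CPM in controls. By mean level over all libraries, 100 of the 144 lay at 2 to under 10 CPM and 41 at 10 to under 100 CPM. The rule kept 1.47% of the 6799 genes of the lowest class, 0.405% of the 10131 genes of the middle class and 0.221% of the 1358 genes of the highest class. A low level and a wide spread go together in these data. In DMSO controls the coefficient of variation had a median of 21.5% among all genes of 2 to under 10 CPM, of 11.3% at 10 to under 100 CPM and of 9.71% at 100 to under 1000 CPM. Its part in the larger share of weakly expressed genes was not tested.

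**Figure D2:**
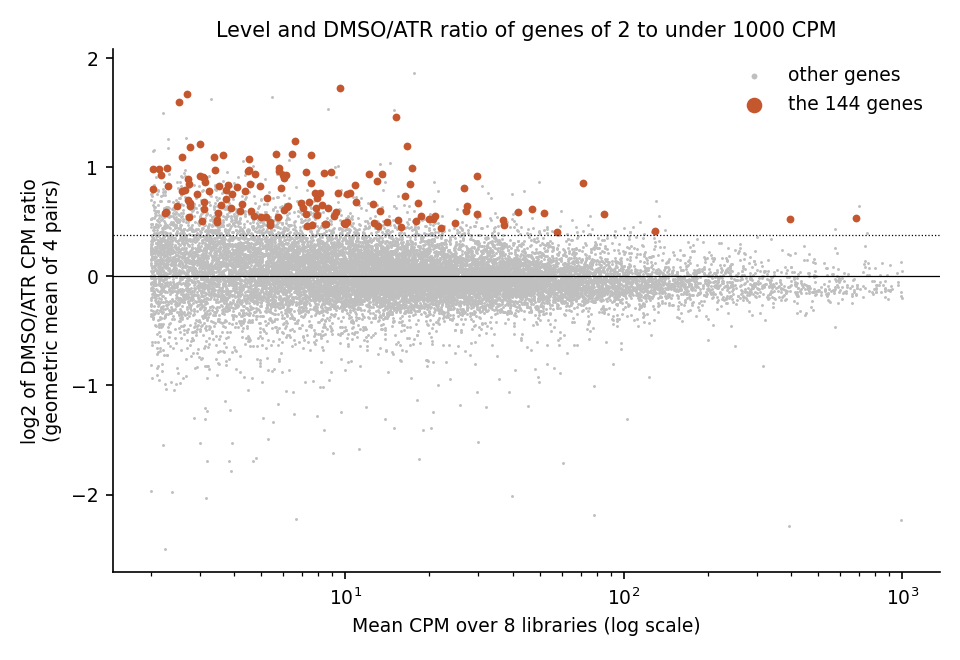
Mean CPM over 8 libraries (log axis) against the log2 of the DMSO/ATR ratio (geometric mean of 4 pairs) for genes of 2 to under 1000 CPM; the 144 genes are orange, the dotted line marks a ratio of 1.3, and 19 genes lie outside the plotted range or have no finite value. The 144 genes crowd at the low end, with 100 of them under 10 CPM, and other genes with a mean ratio over 1.3 lie among them because they missed the limit in at least 1 pair.

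The size of the difference was mostly modest. The geometric mean ratio ranged from 1.33 to 3.32 with a median of 1.62. It was under 1.5 for 42 genes, 1.5 to under 2 for 87 and at least 2 for 15. Genes with the larger ratios were among the less abundant. The DMSO level had a median of 13.3 CPM where the ratio was under 1.5, of 7.31 CPM at 1.5 to under 2 and of 6.07 CPM at 2 or more. The median ratio was 1.70 for the genes of 2 to under 10 CPM and 1.51 for those of 10 to under 100 CPM, and it was 1.44 for the 3 genes above. The limit of 1.3 in all pairs is harder to meet with a small mean ratio where pairs scatter more, and its part in this order was not tested.

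Of the 15 genes with a geometric mean ratio of at least 2, only 4 had a ratio of at least 2 in every pair. They were the 4 with the largest geometric means, gene18886 among them. The second had 6.26, 3.91, 3.59 and 2.85 CPM in DMSO replicates 1 to 4 and 1.58, 1.18, 1.03 and 1.26 CPM after ATR. Its ATR libraries were low and close together, while its controls spread more. The third had 6.32, 3.40, 3.30 and 1.86 CPM in the controls and 2.38, 1.54, 1.11 and 0.382 CPM after ATR, so that the groups overlapped although the ATR library was lower by more than the factor of 2 in every pair. In both groups its level was highest in replicate 1 and lowest in replicate 4. The fourth was the most abundant of them. It had 27.0, 23.3, 13.6 and 25.6 CPM in the controls and 10.1, 9.80, 5.84 and 6.65 CPM after ATR, with no overlap.

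The pairs had similar median ratios among the 144 genes, which follows in part from the ratio limit set for each pair. Outside this choice pair 4 stood apart. Of 587 genes of the CPM range that met the limit in exactly 3 pairs, pair 4 was the one missed in 206, more than any other pair. The median ratio of the 144 genes was 1.59 in pair 1, 1.56 in pair 2, 1.54 in pair 3 and 1.60 in pair 4. The same medians over all genes of the CPM range lay between 0.973 and 1.003. The largest ratio of a gene came from pair 1 in 31 genes, pair 2 in 27, pair 3 in 39 and pair 4 in 47. The smallest came from pair 1 in 31, pair 2 in 36, pair 3 in 38 and pair 4 in 39. A ratio of at least 2 was reached in no pair by 74 genes, in 1 pair by 40, in 2 pairs by 19, in 3 pairs by 7 and in all pairs by 4.

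For 87 genes the largest pair ratio was under 1.5 times the smallest, and for 16 it was at least 2 times the smallest. The SD of a gene's 4 log2 ratios had a median of 0.20. It was 0.26 among the genes of 2 to under 10 CPM and 0.12 among those of 10 to under 100 CPM. The most even gene had ratios of 1.31, 1.34, 1.33 and 1.34, from 60.7, 61.7, 66.1 and 75.2 CPM in DMSO replicates 1 to 4 and 46.3, 46.2, 49.6 and 56.3 CPM after ATR. It also had the smallest geometric mean ratio of the 144, and its groups did not overlap.

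**Figure D3:**
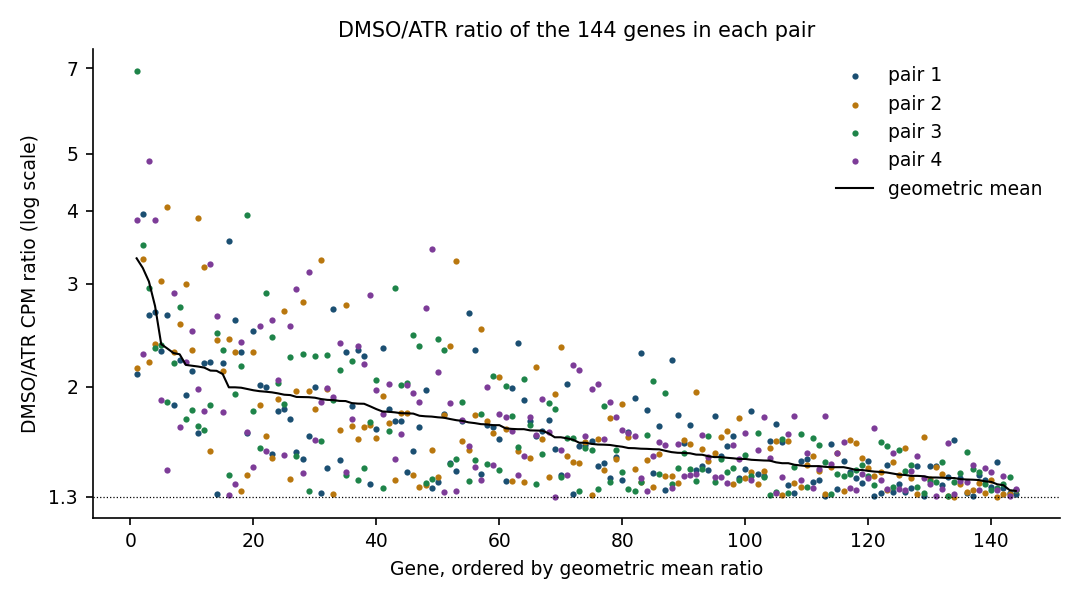
DMSO/ATR CPM ratio (log axis) of the 144 genes in each of the 4 pairs, ordered by the geometric mean, which is drawn as a line; the dotted line is the limit of 1.3. Points of all pairs lie above and below the line along its length, and the highest point is 6.94, the ratio of gene18886 in pair 3.

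Counting error was described by a lower bound on the ratio of each pair, set against 1 and not against the limit of 1.3. The lower end of the exact 2-sided 95% interval of the DMSO/ATR ratio (Clopper-Pearson, counting error only) was above 1 in all pairs for 142 of the 144 genes. It was still so for 138 genes with all counts halved, as would apply if each read pair had been counted as 2 reads. In 121 genes every library had at least 100 counts. The rule had already asked for a ratio of at least 1.3 in each pair, so the counts of 142 and 138 follow in part from it. The same bound was not computed for other genes.

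In the libraries themselves, 70 of the 144 genes had all ATR values below all DMSO values, and in 74 the groups overlapped. Over all 30702 genes tested, 2.28% had no overlap in this direction, and the count among the 144 follows in part from the rule. Those 30702 include 12330 genes with a mean under 2 CPM, and the share within the CPM range of the 144 is not given here. Of the overlapping genes, 36 of 74 had at least a 2-fold range over the DMSO libraries, against 1 of 70 of the others. The coefficient of variation of the DMSO libraries had a median of 30.5% in overlapping genes and 14.6% in the others. The median ratio was nearly the same, 1.60 and 1.68. Overlap is read from the same libraries as the spread, and the rule kept only ratios above its limit. The wider spread of overlapping genes thus follows in part from the definition of overlap and from the rule. Whether spread or ratio had the larger part in overlap was not tested.

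Levels of the 144 genes differed between replicate numbers within each group. At least a 2-fold range was found for 37 genes (25.7%) over the DMSO libraries and for 54 genes (37.5%) over the ATR libraries. Among all genes of the CPM range these shares were 14.6% and 15.8%, but those genes were on average more abundant. At 2 to under 10 CPM the coefficient of variation of DMSO controls had a median of 23.7% in the 144 genes and 21.5% in all genes. It was 18.1% and 11.3% at 10 to under 100 CPM, and 14.3% (3 genes) and 9.71% at 100 to under 1000 CPM. The highest DMSO level came from replicate 3 in 53 genes, replicate 1 in 41, replicate 2 in 32 and replicate 4 in 18. Replicate 4 thus held the highest control in 12.5% of the 144 genes, against 24.0% of all genes of the CPM range. The order was shared between treatments. The same number was highest in both groups in 96 genes (66.7%) and lowest in both in 88 (61.1%). Of all genes of the CPM range, 47.2% had the same highest number and 48.6% the same lowest. Since the rule asks for a ratio of at least 1.3 in each pair, the shared order follows in part from it.

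When the variance of each gene's log2 CPM (2 counts added) was divided into parts, treatment took a median of 58.0%, the replicate number 37.4% and the remainder 2.93%. Over all genes of the CPM range the medians were 9.88%, 61.8% and 18.8%. The treatment part and the remainder were used by the rule. The parts add up to the whole variance of a gene, so the share of the replicate number was bound by the rule too. A lower share does not mean smaller differences between numbers, and the 2-fold ranges given above were more frequent in the 144 genes. Of the 144 genes, 52 had more variance between replicate numbers than between treatments, as had 83.6% of all genes of the range. The rule bears on that count as well. The median share of the replicate number was 24.0% without replicate 3 and from 32.2% to 37.1% without any 1 of the others.

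**Figure D4:**
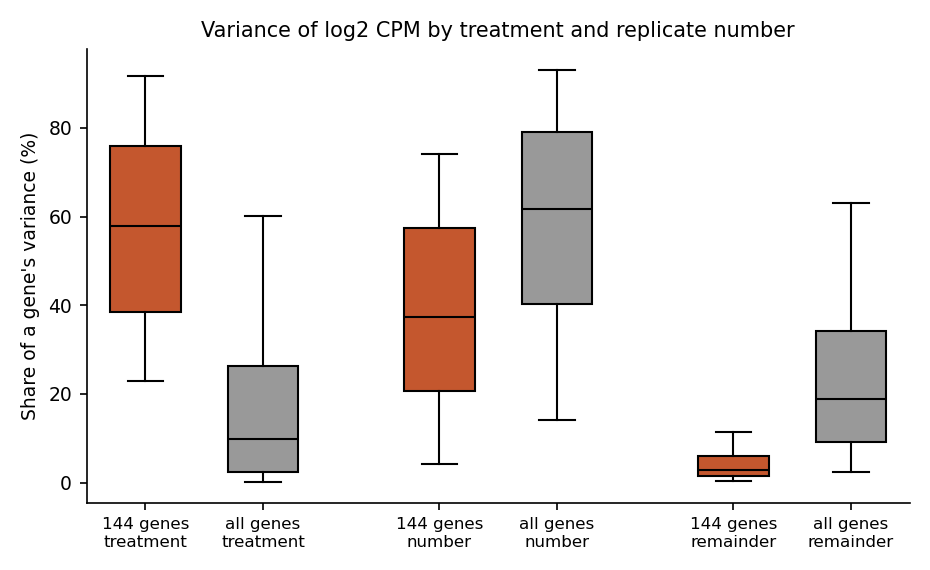
Share (%) of the variance of log2 CPM due to treatment, to replicate number and to the remainder, for the 144 genes (orange) and all genes of 2 to under 1000 CPM (grey). Lines are medians, boxes quartiles and whiskers the 5th and 95th percentiles. The median share of the replicate number is 37.4% in the 144 genes and 61.8% in all genes. The parts add up to the whole variance of a gene, so this share was bound by the rule too.

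In 14 of the 144 genes (9.72%) both groups spanned at least 3-fold between replicate numbers, against 2.56% of the genes of the CPM range, which were on average more abundant. The widest was a gene with 37.6, 31.1, 0.0768 and 21.2 CPM in DMSO replicates 1 to 4 and 26.9, 17.6, 0.0557 and 11.3 CPM after ATR. It was near absent from both libraries of replicate 3, with 9 counts in the control and 5 in the ATR library, where each of the other libraries had at least 914. Its ratio of 1.38 in pair 3 rests on those few counts, while those of 1.40, 1.77 and 1.89 in pairs 1, 2 and 4 do not. Another had 0.911, 1.66, 3.24 and 10.4 CPM in DMSO replicates 1 to 4 and 0.692, 1.16, 2.01 and 7.55 CPM after ATR. It was highest in replicate 4 and lowest in replicate 1 in both groups, with a geometric mean ratio of 1.43. Among the more abundant genes, 1 had 117, 76.4, 39.2 and 139 CPM in the controls and 64.0, 44.1, 23.3 and 68.6 CPM after ATR. Its pair ratios of 1.84, 1.73, 1.68 and 2.02 were close to each other although its level in the controls changed 3.54-fold between numbers.

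Near the limits the values ran on without a gap. The smallest pair ratio of a gene had a median of 1.38 over the 144 genes, and the gene that only just met the limit had ratios of 1.49, 1.3, 1.34 and 1.33. In a further 587 genes of the CPM range the ratio was at least 1.3 in exactly 3 pairs. The pair that failed was still over 1 in 327 of them and at or below 1 in 260. Pair 4 was the failing pair in 206 genes, and pairs 1, 2 and 3 in 128, 133 and 120. The nearest of them by its smallest ratio had 5.19, 5.63, 2.26 and 5.12 CPM in DMSO replicates 1 to 4 and 3.99, 3.78, 1.25 and 3.50 CPM after ATR. The ratio limit was also met by 467 genes with a mean under 2 CPM and by none of the 84 genes at 1000 CPM or more. The least abundant of the 144 had a mean of 2.04 CPM, and the nearest gene below the limit had 1.96 CPM.

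The rule was then applied to 3 pairs at a time, with the TMM factors and mean CPM of those 6 libraries, and the chosen genes were read in the pair not used. The pair not used did not enter the choice of these genes, but it did enter the choice of the 144. Chosen genes that met the ratio limit there were close in number to the 144 and are lower in ATR by that limit. They are part of the shares and medians that follow, which are therefore no separate check of the 144. With pair 1 held out, 281 genes were chosen, and 215 of them (76.5%) were lower in the ATR library of pair 1, against 49.5% of all genes of the CPM range. With pair 2 held out, 230 of 279 genes (82.4%) were lower in ATR, against 46.4%. With pair 3 held out it was 211 of 252 (83.7%), against 48.6%. The share was smallest in pair 4, at 243 of 343 (70.8%), against 50.6%.

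The size shrank in the held-out pair. The median log2 ATR/DMSO of the chosen genes was -0.39, -0.40, -0.41 and -0.28 in held-out pairs 1 to 4, a mean of -0.37 ± 0.060 (SD, n = 4). The genes had been chosen at medians of -0.68, -0.67, -0.69 and -0.67 in the 3 pairs used. All genes of the CPM range had held-out medians between -0.0039 and 0.027. A DMSO/ATR ratio of at least 1.3 was found again in 51.2%, 53.0%, 54.0% and 41.7% of the chosen genes, against 13%, 16.2%, 10.0% and 10.8% of all genes. These chosen genes numbered 144, 148, 136 and 143, close to the 144 that met the rule in all pairs. Their shares thus largely restate how many genes met or missed the limit in that pair. A ratio of at least 1.3 the other way was found in 10.3%, 5.02%, 5.16% and 12.2% of the chosen genes, against 11.5%, 10.1%, 8.27% and 9.57% of all genes. This share was lower among the chosen genes in pairs 2 and 3, near that of all genes in pair 1 and above it in pair 4. The 4 sets share most of their libraries and genes are not replicates, so these shares carry no p.

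**Figure D5:**
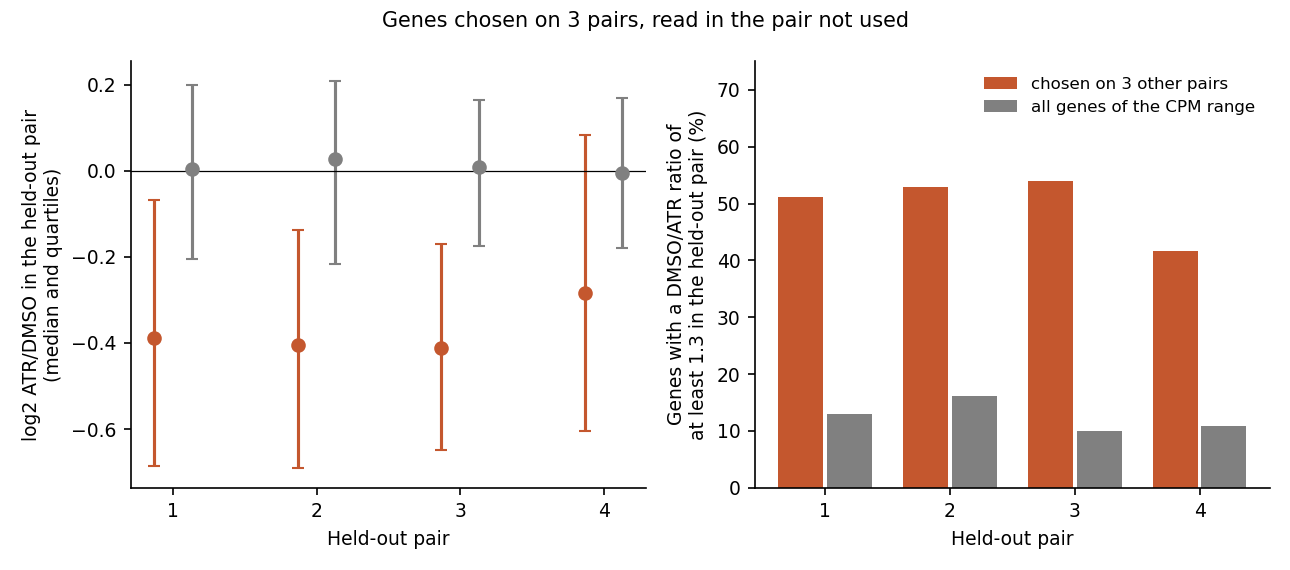
Left, log2 ATR/DMSO (median, with bars from the lower to the upper quartile) in the pair not used for the choice; right, the share (%) of genes with a DMSO/ATR ratio of at least 1.3 there. Genes chosen on the 3 other pairs (orange) have medians between -0.41 and -0.28, and all genes of the CPM range (grey) lie near 0.

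Held-out values were also read by level, since weakly expressed genes pass a ratio of 1.3 more often in any pair. Among genes of 2 to under 10 CPM, 51.3%, 55.2%, 52.2% and 40.2% of those chosen had a ratio of at least 1.3 in held-out pairs 1 to 4, against 23.5%, 30.5%, 18.6% and 19.4% of all genes of that level. At 10 to under 100 CPM the shares were 52.6%, 50.0%, 58.5% and 44.1%, against 7.58%, 8.39%, 5.10% and 5.91%. From 65 to 93 genes were chosen at this level, and their held-out medians were -0.41, -0.38, -0.44 and -0.34. At 100 to under 1000 CPM only 4 to 9 genes were chosen, 3 of which had a ratio of at least 1.3 in each held-out pair. The 144 genes also number 3 at that level. At 2 to under 10 CPM, 73.6%, 81.2%, 80.2% and 68.7% of the chosen genes were lower in ATR in held-out pairs 1 to 4. Of all genes of that level, 53.1%, 60.3%, 55.1% and 51.2% were lower, more than over the whole CPM range. At 10 to under 100 CPM, 85.5%, 84.6%, 92.3% and 75.3% of chosen genes were lower, against 49%, 40.8%, 46.3% and 48.8% of all. As over the whole CPM range, the shares by level largely restate how many genes met or missed the limit in that pair. They are no separate check of the 144 genes.

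Tests over all 30702 genes are given for reference, since they use the contrast that chose the 144 genes. edgeR's quasi-likelihood test with treatment only called 2 genes lower in ATR at an adjusted p under 0.05, which is 0.00651% of the genes tested, and both were among the 144. With the replicate number as a block it called 479 genes lower (1.56%), of which 108 were among the 144. DESeq2 with treatment only called 79 genes lower (0.336% of those with an adjusted p), of which 40 were among the 144, and all 40 were also called by the blocked fit. Without replicate 1, 2, 3 and 4 the blocked fit called 169, 255, 135 and 403 genes lower. Of these, 59, 68, 55 and 77 were among the 144, a setting chosen after seeing the data.

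Genes that the blocked fit called were the more abundant ones. It called all 44 genes of 10 CPM or more and 64 of the 100 genes below, against 1.56% of all genes tested. The 36 genes it did not call had a median mean level of 3.11 CPM and none was above 8.45 CPM, against a median of 8.29 CPM for the 108 called. Their median ratio was 1.53, against 1.70. For the 144 genes the standard error of the log2 fold change had a median of 0.24 without the block and 0.16 with it, while the log2 fold change itself had a median of -0.68 and -0.70. The rule asks for a ratio of at least 1.3 in each pair, so the smaller standard error with the block follows in part from it. Standard errors over all genes are not given here. By size, the blocked fit called 28 of 42 genes with a ratio under 1.5, 65 of 87 at 1.5 to under 2 and all 15 at 2 or more. DESeq2 called 10, 22 and 8 of them, against 0.336% of all genes with an adjusted p. Shares of all genes called within these classes of level or ratio were not computed. Both fits use the contrast that chose the 144 genes, so high shares among them follow in part from the rule.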

How the data were processed

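Per the paper's methods, the authors removed poor-quality bases, mapped the reads to the *X. laevis* reference with STAR and deposited unnormalized counts of uniquely mapped reads for each gene, made with htseq-count. Versions of their tools were not given in the sources used here. All 8 columns of counts were used, with groups and replicate numbers from the sample titles. The 144 genes and the measures were chosen with earlier results of these data known.

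CPM used TMM factors of edgeR 4.0.16 (R 4.3.3) over genes with at least 1 count in 4 or more libraries. edgeR's quasi-likelihood test, with treatment as the only term, was fitted on those genes and adjusted by Benjamini-Hochberg. Standard errors were taken as log2 fold changes over the square root of F. Alternatives were the replicate number as a block, DESeq2 1.42.0, limma-voom (limma 3.58.1), other scalings, filters and limits, and libraries left out. The fits were also run on simulated data as a check of the code, and no result given here rests on that run. Genes printed by identifier were the one with the largest geometric mean ratio and the most abundant one.

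Libraries of the same replicate number deviated together from their group means (correlations of 0.305, 0.213, 0.406 and 0.280 across 30702 genes, for replicates 1 to 4), so the numbers were taken as pairs from the data; no label gives their meaning. The paper calls the pools biological replicates without saying how they were drawn. Without the block, p-values measure only the spread between these pools, part of which may be technical. With the block, they measure only how the difference between ATR and DMSO varies between replicate numbers. In both fits edgeR draws the dispersion of a gene towards that of other genes. Library totals were from 79887778 to 106791269 counts.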

Additional observations from a re-analysis of the deposited data

Results flagged for a closer look

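ATR replicate 2 had a higher total count, 104915882, than the remaining ATR libraries, whose totals ranged from 79887778 to 83727156. Of 15 sets of 4 values tested, this alone passed Dixon's 95% critical value, and chance flags about 5% of sets. The summed level of the 144 genes in that library, 2196 CPM, was within the 2045 to 2273 CPM of the remaining ATR libraries.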

How the results depend on the processing

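The number of genes that met the rule depended on its limits. It was 331 at a ratio of at least 1.2, 30 at 1.5 and 4 at 2, and 44 with the mean CPM from 10 to under 1000. On 3 pairs it ranged from 252 (without replicate 3) to 343 (without replicate 4). With DESeq2 size factors it was 136, all of them among the 144. With total counts only it was 200, of which 135 were among the 144. Genes called lower by edgeR without the block numbered 2, both among the 144, and from 0 to 1 with any 1 library or replicate number left out. With the replicate block they were 479, of which 108 were among the 144, and 169, 255, 135 and 403 without replicates 1 to 4, of which 59, 68, 55 and 77 were among the 144 (chosen after seeing the data). DESeq2 called 79, of which 40 were among the 144. limma-voom called 2, as in edgeR. The log2 fold changes of gene18886 and gene5277 were negative in every fit where they were read, which the rule had fixed in advance. They passed the threshold with the replicate block and in DESeq2 only. Neither gene was read in edgeR fits with other scalings or filters, or with a whole replicate number left out. The number of the 144 genes without overlap was between 81 and 104 on 3 pairs. Groups of fewer libraries separate more easily, and the share over all genes was not computed there, so the rise is not read as a result. The mean of the held-out medians was -0.46 at a ratio of at least 1.5. The median share of variance of the replicate number ranged from 24.0% to 37.1% without 1 replicate number. The median level and ratio moved by less than the spread between libraries or pairs with DESeq2 size factors and with any 1 number left out. The same 144 genes were kept there and not chosen again, so the steady ratio follows in part from the rule. Each group has 4 libraries, and identifiers without names limit what can be said of function.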
